A study of Mus with 2 samples.

Results

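The intracellular lipases and their regulators were followed in single-nucleus RNA sequencing (snRNA-seq) of interscapular brown adipose tissue (iBAT). The set was a list of 6 genes of the 32285 listed in the files, given by name, with no threshold on a measured value, though earlier results of these data were known when the list was made. It held the lipases *Pnpla2*, *Pnpla3*, *Lipe* and *Mgll* and the regulators *Abhd5* and *G0s2*. One library came from *Wtap* flox/flox mice, whose *Wtap* alleles are floxed. The other was labelled *Wtap*-BKO, from mice with the same floxed alleles and *Ucp1*-iCre, so that Cre is made in cells that express *Ucp1*. All mice were C57BL/6, 8 weeks old and on a chow diet, and each library pooled nuclei of 4 mice. Each genotype had 1 library, so differences between genotypes could not be tested, and every interval below is a 95% interval that covers counting error only.

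Lipolysis takes the fatty acids off stored triglyceride in steps. ATGL, encoded by *Pnpla2*, acts on triglyceride, hormone-sensitive lipase, encoded by *Lipe*, acts on diglyceride, and monoglyceride lipase, encoded by *Mgll*, acts on monoglyceride. ABHD5 (also called CGI-58) activates ATGL, G0S2 inhibits it, and in brown fat the released fatty acids both fuel and activate heat production.

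The libraries held 9494 and 8772 nuclei with medians of 954 and 1306 unique molecular identifiers (UMIs) per nucleus, in the order *Wtap* flox/flox and *Wtap*-BKO, and they shared 20 barcodes. Mitochondrially encoded genes took 7.60% and 11.7% of the UMIs. Clustering without the 6 genes gave 14 clusters, of which 5 were adipocyte-like by a list of 12 adipocyte markers, with 6758 and 4952 nuclei. *Wtap* itself had 50.4 and 48.2 UMIs per 1000000 UMIs (CPM) in these nuclei, a log2 ratio of -0.06 (-0.27 to 0.14). The floxed part of *Wtap* is an internal exon, while the tags are read near the 3′ end of a transcript, so a transcript without that exon can still be counted and this level checks neither label. *Ucp1*, whose cells express the Cre, was at 151.5 and 258 CPM in adipocyte-like nuclei, and *Pparg* at 2864 and 1348 CPM. Macrophage-like nuclei numbered 292 and 1117, and T cell-like nuclei 118 and 742. Since no level here shows the deletion itself, the second library is called the library labelled *Wtap*-BKO. Ratios between libraries below divide its value by that of *Wtap* flox/flox.

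In adipocyte-like nuclei, *Lipe* and *G0s2* were higher in the library labelled *Wtap*-BKO by more than 1.5-fold. *Pnpla3* and *Mgll* were higher by smaller amounts, *Pnpla2* was slightly lower, and *Abhd5* differed by less than its counting interval. Of the 6 genes, 2 were higher by at least 1.5-fold, against 19.5% of the 10104 genes with at least 100 UMIs in these nuclei. None of the 6 was lower by that fold, against 10.6% of the same genes. With mitochondrial UMIs left out of the denominator these shares of all genes were 23.6% and 6.92%, and the median log2 ratio of all genes moved from 0.02 to 0.13. Over the 6 genes the median log2 ratio was 0.32.

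*Pnpla2* (chr7:141455188-141460743 in the RefSeq annotation of GRCm38.p6, the assembly of mm10) had 735 CPM from 5588 UMIs in *Wtap* flox/flox and 642 CPM from 5366 UMIs in the library labelled *Wtap*-BKO. The log2 ratio was -0.20 (-0.25 to -0.14). It was lower in all 5 adipocyte-like clusters, by -0.16 to -0.45, and only in cluster 8 did the interval include 0 (-0.40 to 0.05).

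*Pnpla3* (chr15:84167776-84189521), the patatin-like paralog of *Pnpla2*, had 97.1 CPM from 738 UMIs and 124 CPM from 1036 UMIs. Its log2 ratio was 0.35 (0.22 to 0.49). The clusters did not share this direction, since the ratio was 0.94 (0.36 to 1.58) in cluster 8 and -0.92 (-1.63 to -0.18) in cluster 10.

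*Lipe* (chr7:25379527-25398486) had 1781 CPM from 13542 UMIs and 3118 CPM from 26057 UMIs. The log2 ratio was 0.81 (0.78 to 0.84), a 1.75-fold higher level. All 5 clusters were higher, between 0.78 and 0.88 in clusters 0, 1, 2 and 10 and at 0.39 (0.27 to 0.51) in cluster 8. *4732471J01Rik* overlaps the *Lipe* locus and had 1350 and 1182 UMIs over all nuclei of the 2 libraries. Strand use in the counting is not given in the sources used here.

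*Mgll* (chr6:88724412-88828360) had 554 CPM from 4211 UMIs and 679.7 CPM from 5680 UMIs, a log2 ratio of 0.30 (0.24 to 0.35). It was higher in clusters 0, 1, 2 and 8, by 0.21 to 0.57, and at 0.01 (-0.36 to 0.39) in cluster 10. *Gm26588*, which overlaps it, had 47 and 27 UMIs.

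Of the regulators, *Abhd5* (chr9:122351616-122381524) had 87.7 CPM from 667 UMIs and 97.1 CPM from 811 UMIs. The log2 ratio of 0.15 had an interval that included 0 (-0.0041 to 0.30). With mitochondrial UMIs left out of the denominator the ratio was 0.26. The interval shifts up by the same amount and then leaves out 0. *G0s2* (chr1:193272160-193273188) had 245 CPM from 1862 UMIs and 447 CPM from 3738 UMIs. Its log2 ratio was 0.87 (0.79 to 0.95), or 1.83-fold, and all 5 clusters were higher, by 0.78 to 1.05. Between these 2 libraries the inhibitor thus differed more than the lipase it inhibits.

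**Figure D1:**
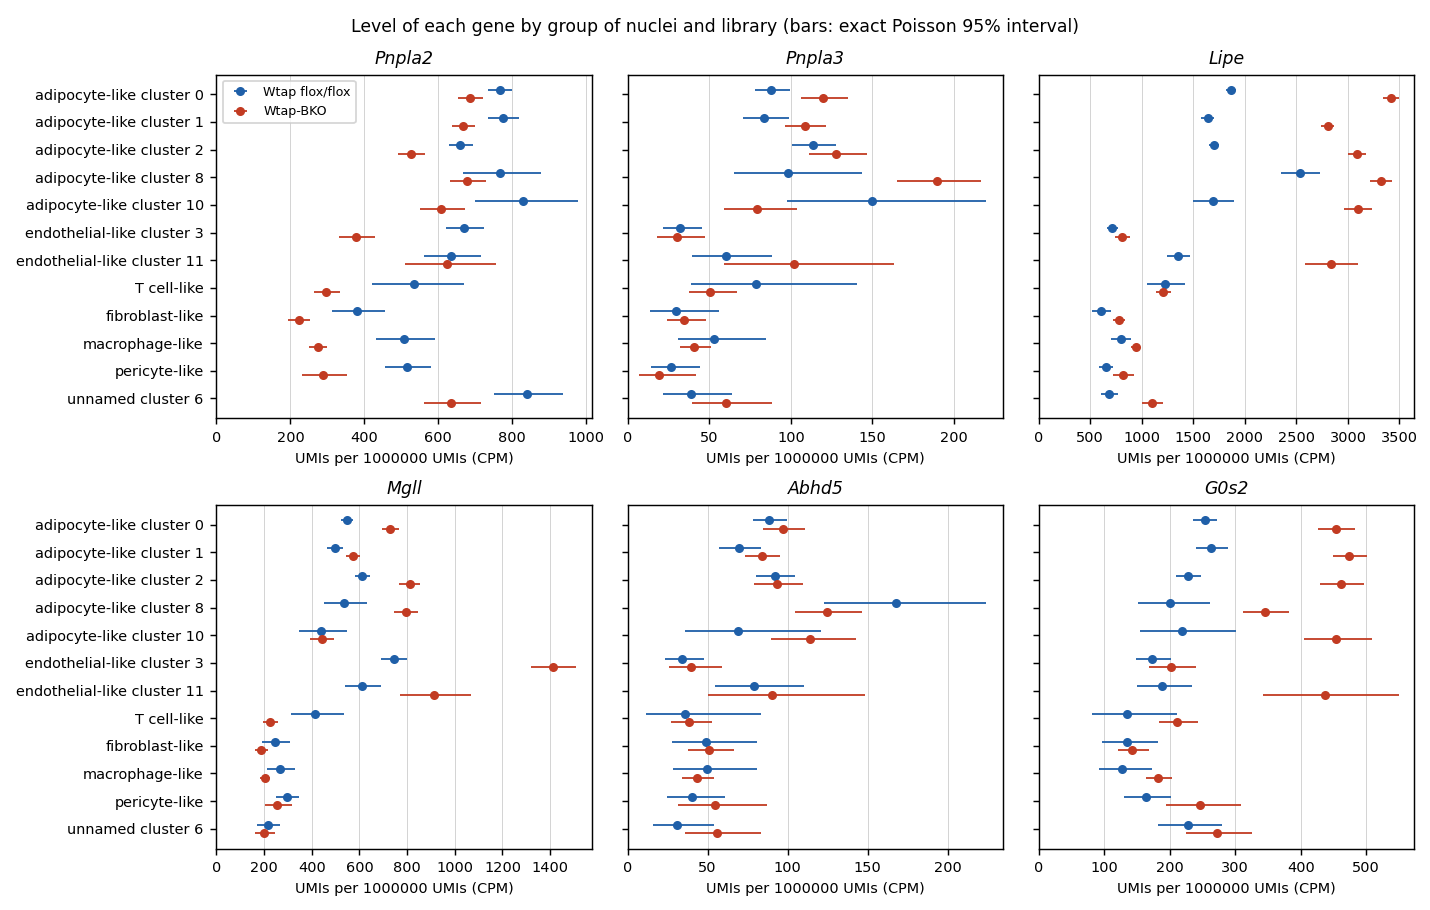
Level of each gene in CPM (x axis) in 12 groups of nuclei (y axis) with at least 50 nuclei in both libraries, in *Wtap* flox/flox (blue) and the library labelled *Wtap*-BKO (red); bars are exact Poisson 95% intervals. *Lipe* and *G0s2* of the second library lie right of *Wtap* flox/flox in all 5 adipocyte-like clusters, and *Mgll* reaches its highest level, 1413 CPM, in endothelial-like cluster 3.

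Pairs of the genes were also set against each other, since the ratio of 2 genes in the same nuclei does not depend on how a library is scaled. In adipocyte-like nuclei there were 33.3 *G0s2* UMIs per 100 *Pnpla2* UMIs in *Wtap* flox/flox and 69.7 in the library labelled *Wtap*-BKO, which is 2.09-fold more (1.95 to 2.24). This held in each of the 5 clusters, from 1.94-fold in cluster 8 to 2.83-fold in cluster 10. *Lipe* per 100 *Pnpla2* UMIs went from 242 to 486, a 2.004-fold difference (1.92 to 2.09).

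*G0s2* per 100 *Lipe* UMIs was 13.7 and 14.3, a ratio of 1.04 (0.983 to 1.11), so these genes differed between the libraries by nearly the same factor. *Mgll* per *Lipe* was lower, at 0.701-fold (0.670 to 0.733), and *Abhd5* per *Pnpla2* was 1.27-fold higher (1.13 to 1.41). White-like cluster 8 did not share these directions, with *Mgll* per *Lipe* at 1.13-fold (0.929 to 1.38) and *Abhd5* per *Pnpla2* at 0.836-fold (0.574 to 1.23). In macrophage-like nuclei, *G0s2* per *Pnpla2* was 2.65-fold higher (1.82 to 3.94), and in T cell-like nuclei 2.81-fold higher (1.62 to 5.08). Both intervals are wide, and the difference from adipocyte-like nuclei was not tested.

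The 5 adipocyte-like clusters differed in state. Cluster 2 had 5 of 6 brown program markers higher by at least 1.5-fold than the other adipocyte-like nuclei, cluster 8 had 5 of 6 white-like markers higher, and cluster 10 had 5 of 5 interferon markers higher. Mitochondrially encoded genes led cluster 1, and neither it nor cluster 0 had a marker of these 3 lists at that fold. Cluster 8 held 202 and 511 nuclei.

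In the white-like cluster 8, *Abhd5* was 1.98-fold higher (1.44 to 2.68) than in the other adipocyte-like nuclei of *Wtap* flox/flox, from 46 UMIs, and 1.34-fold higher (1.11 to 1.61) in the library labelled *Wtap*-BKO. *Lipe* was 1.44-fold (1.34 to 1.56) and 1.08-fold (1.04 to 1.11) higher there. *G0s2* was lower in both libraries, at 0.814-fold (0.611 to 1.06) and 0.745-fold (0.670 to 0.828). *Pnpla3* was 1.02-fold (0.665 to 1.49) and 1.67-fold (1.43 to 1.94). None of the 6 genes passed 1.5-fold in both libraries, against 5.99% of the 7529 genes measured in this comparison.

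In the brown-program cluster 2, *Pnpla2* was lower than in the other adipocyte-like nuclei, at 0.855-fold (0.807 to 0.906) and 0.787-fold (0.730 to 0.847). *Mgll* was higher there, at 1.16-fold (1.09 to 1.24) and 1.25-fold (1.17 to 1.33). In the interferon cluster 10 *Mgll* was lower, at 0.787-fold (0.618 to 0.987) and 0.630-fold (0.558 to 0.709). *Pnpla3* in cluster 10 went opposite ways, at 1.56-fold (1.01 to 2.31) from 26 UMIs in *Wtap* flox/flox and 0.618-fold (0.459 to 0.818) from 52 UMIs in the library labelled *Wtap*-BKO. The *Pnpla2* and *Mgll* differences named here had the same direction in both libraries and were below 1.5-fold, except for *Mgll* in cluster 10 of the library labelled *Wtap*-BKO.

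The nuclei differed in their share of mitochondrial UMIs, and this share was higher in the library labelled *Wtap*-BKO, where the median was 17.6% in cluster 1 against 8.20% in *Wtap* flox/flox. Within 4 ranges of the share, *Lipe* had log2 ratios of 0.86 to 1.003 and *G0s2* of 0.70 to 0.94, with every interval above 0. *Pnpla2* was lower in all 4 ranges, from -0.31 in nuclei with at most 5% to -0.15 in nuclei with over 25%, where the interval included 0. *Mgll* was at 0.53 (0.44 to 0.62), 0.52, 0.31 and 0.53 from the lowest range to the highest, where the interval included 0. Each of these was larger than its 0.30 over all adipocyte-like nuclei. The *Lipe* ratios of the 4 ranges were likewise above its 0.81 over all these nuclei.

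**Figure D2:**
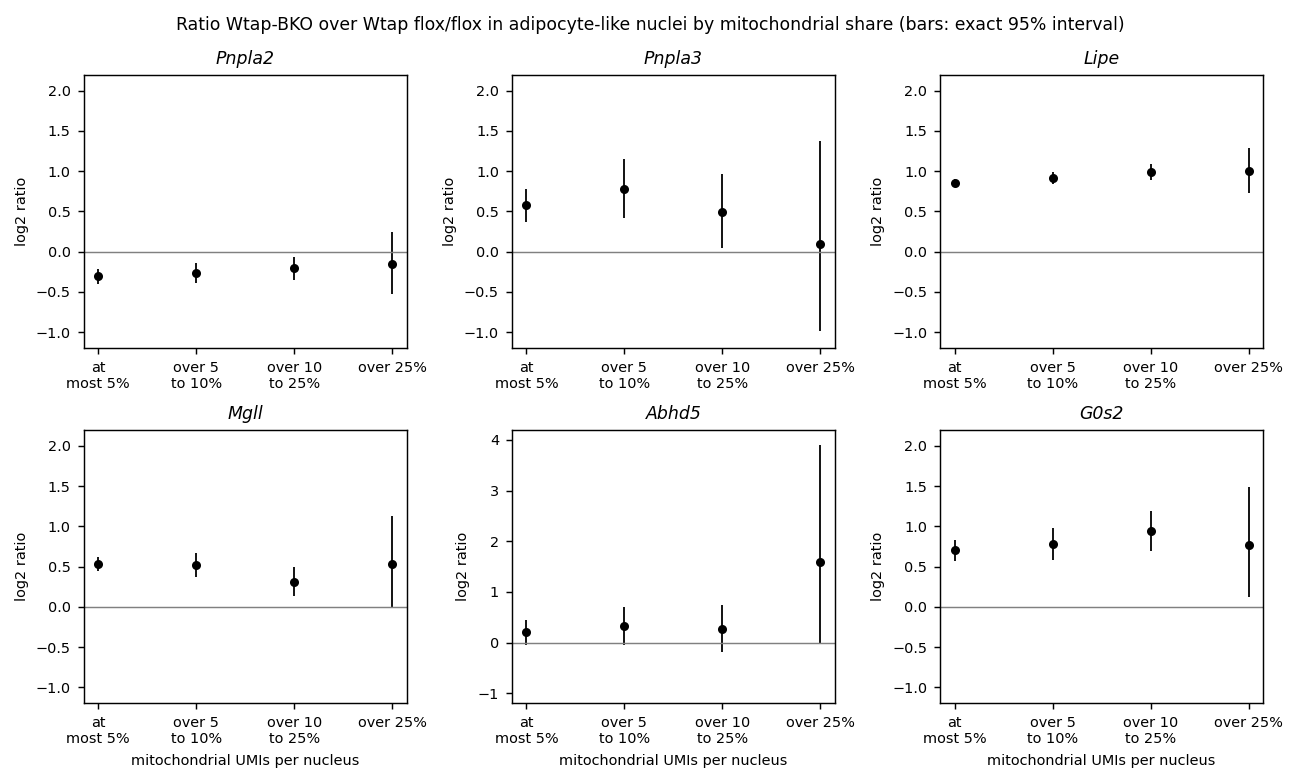
Log2 ratio between libraries (y axis, *Wtap*-BKO divided by *Wtap* flox/flox, as labelled) in adipocyte-like nuclei, by mitochondrial share of the UMIs of a nucleus (x axis), with exact 95% intervals of counting error; the *Abhd5* panel has a longer y axis. *Lipe* and *G0s2* lie above 0 and *Pnpla2* below 0 in all 4 ranges.

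The share of adipocyte-like nuclei with at least 1 UMI of a gene was compared after thinning each nucleus to 1000 UMIs, which left out 3471 and 1114 nuclei. *Pnpla2* was found in 51.1% (49.4 to 52.8) and 46.5% (44.9 to 48.0), and *Lipe* in 80.4% (79.0 to 81.8) and 94.6% (93.8 to 95.3). *G0s2* was found in 20.5% (19.1 to 21.9) and 33.8% (32.3 to 35.3). Without thinning, at medians of 989 and 1470.5 UMIs, *Pnpla2* turned to the opposite direction, from 54.0% to 60.2%, while *Lipe* went from 80.8% to 95.9% and *G0s2* from 22.8% to 45.6%.

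*Mgll* was found in 39.9% and 45.3%, *Pnpla3* in 9.46% and 10.0% and *Abhd5* in 7.88% and 8.55% of the thinned nuclei. In macrophage- and T cell-like nuclei, thinned in the same way, which left 183 and 1115 nuclei and left out 227 and 744, the shares were 39.3% and 21.2% for *Pnpla2*, 60.7% and 45.2% for *Lipe*, 29.5% and 15.4% for *Mgll*, and 12.6% and 14.2% for *G0s2*. Before thinning, the medians over all these nuclei were 909 and 1156 UMIs. For *Pnpla3* they were 6.01% (3.04 to 10.5) and 4.13% (3.04 to 5.46), and for *Abhd5* 5.46% (2.65 to 9.82) and 3.32% (2.35 to 4.55). In *Wtap* flox/flox the intervals of these 2 genes overlapped those of adipocyte-like nuclei, while those of the other 4 genes did not. In the library labelled *Wtap*-BKO the adipocyte-like share was above that of macrophage- and T cell-like nuclei for each of the 6 genes, with no overlap of the intervals.

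Detection of 2 of the genes in the same thinned nucleus lay close to the product of their shares. Over the 15 pairs, the observed share divided by the product ran from 0.944 to 1.18 in *Wtap* flox/flox and from 0.853 to 1.12 in the library labelled *Wtap*-BKO. *Pnpla2* and *G0s2* were found together in 11.3% (10.3 to 12.5) of nuclei of *Wtap* flox/flox, against a product of 10.5%, and in 14.4% (13.3 to 15.5) of the other library, against a product of 15.7%. The interval of this pair included the product in *Wtap* flox/flox and lay below it in the other library. UMIs of exactly 3 of the 6 genes were found in 25.8% and 32.0% of the thinned nuclei, and of none in 3.95% and 0.756%.

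Outside adipocyte-like nuclei, the genes were detected in every class with at least 50 nuclei in both libraries, with the 12 adipocyte markers beside them. Summed over the markers, the CPM of macrophage-like nuclei was 0.465 and 0.310 times that of adipocyte-like nuclei of the same library, and that of T cell-like nuclei 0.659 and 0.3503 times. *Lipe* lay at 0.447 and 0.302 times in macrophage-like and 0.689 and 0.388 times in T cell-like nuclei, close to the markers.

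*Pnpla2* was above the summed markers in macrophage-like nuclei, at 0.690 (0.587 to 0.806) and 0.426 (0.388 to 0.467). In pericyte-like nuclei it was at 0.701 and 0.449 against 0.383 and 0.323 for the sum, and in fibroblast-like nuclei at 0.516 and 0.346 against 0.382 and 0.347, so that in the latter the second library showed no excess. Single markers ranged up to 0.903 and 0.542 in macrophage-like nuclei and up to 1.18 and 0.625 in pericyte-like nuclei, and *Pnpla2* lay within their range.

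*G0s2* was above the sum in some of these classes, at 0.521 (0.373 to 0.709) and 0.408 (0.364 to 0.457) in macrophage-like nuclei and at 0.668 and 0.551 in pericyte-like nuclei. *Abhd5* was at 0.568 (0.322 to 0.928) and 0.444 (0.348 to 0.56) in macrophage-like nuclei. In *Wtap* flox/flox the intervals of both genes there included the value of the sum. *G0s2* was below the sum in T cell-like nuclei of *Wtap* flox/flox (0.553 against 0.659) and in fibroblast-like nuclei of the library labelled *Wtap*-BKO (0.320 against 0.347), and *Abhd5* was below it in the former (0.406), with intervals that included the sum. Whether these UMIs came from the nuclei themselves or from free RNA of adipocytes was not tested.

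Between the libraries, *Pnpla2* was lower in macrophage-like nuclei, at 507 and 274 CPM and a log2 ratio of -0.89 (-1.15 to -0.63). It was also lower in T cell-like nuclei (-0.85), fibroblast-like nuclei (-0.77) and pericyte-like nuclei (-0.84). The 12 markers summed were lower in the same classes, at log2 ratios of -0.69, -1.02, -0.24 and -0.35. Single markers did not all share this direction. *Adipoq* was at 0.51, 0.68, 0.69 and 0.58, with an interval that included 0 in T cell-like nuclei (-0.01 to 1.47). *Ucp1* was at 5.2e-05, -0.17, -0.82 and -0.70. The part of the markers in the *Pnpla2* values was not tested.

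**Figure D3:**
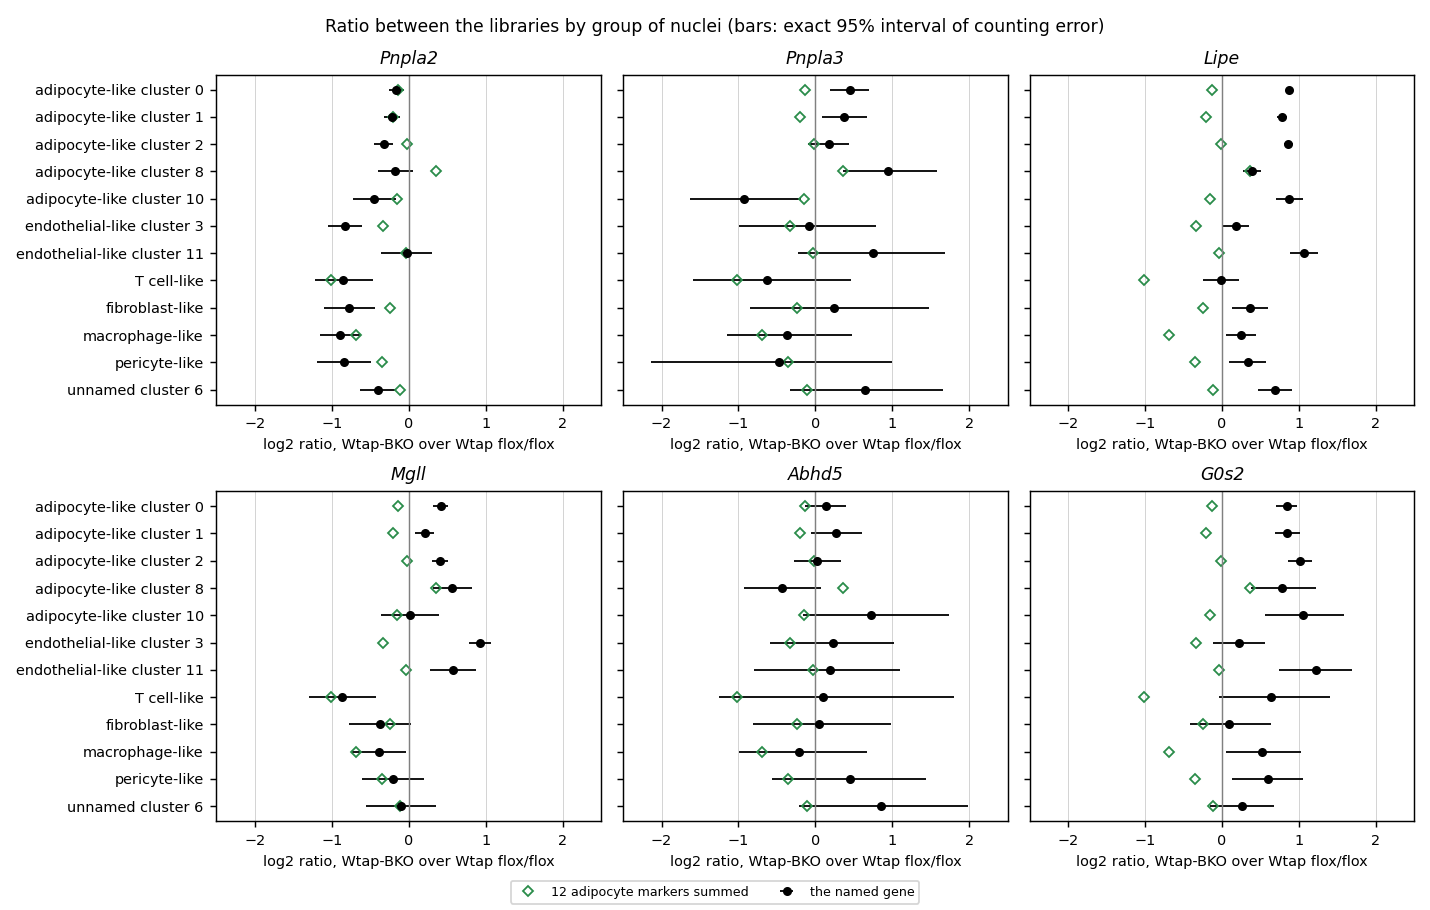
Log2 ratio between libraries (x axis, *Wtap*-BKO divided by *Wtap* flox/flox, as labelled) for each gene in 12 groups of nuclei (y axis), black points with exact 95% intervals of counting error; open green diamonds give the 12 adipocyte markers summed in the same nuclei. *Mgll* lies above 0 in endothelial-like cluster 3 (0.93) and below 0 in T cell-like nuclei (-0.87), where the markers are at -1.02.

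In endothelial-like nuclei *Mgll* was above its adipocyte-like level in both libraries. Monoglyceride lipase also acts on the endocannabinoid 2-arachidonoylglycerol and is present in many cell types. *Mgll* had 703 CPM from 984 UMIs in *Wtap* flox/flox and 1307 CPM from 1040 UMIs in the library labelled *Wtap*-BKO. This was 1.27-fold (1.18 to 1.36) and 1.92-fold (1.80 to 2.06) the level of adipocyte-like nuclei of the same library. Over all endothelial-like nuclei, the other 5 genes were below that level, at 0.419 to 0.897 and 0.365 to 0.670 times. The markers summed were at 0.503 and 0.430. Single markers reached 1.44 and 0.957 times, so *Mgll* lay within their range in *Wtap* flox/flox and above it in the library labelled *Wtap*-BKO.

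No gene of the 6 was at least 1.5-fold above adipocyte-like nuclei in both libraries, against 8.74% of 8157 genes. *Mgll* was 2.63-fold (2.11 to 3.31) and 6.41-fold (5.69 to 7.24) its level in macrophage-like nuclei. With a minimum of 1000 UMIs per nucleus, an alternative added after the data were seen, the log2 ratio to adipocyte-like nuclei was -0.060 in *Wtap* flox/flox and 0.58 in the library labelled *Wtap*-BKO, against 0.34 and 0.94 with all nuclei. The endothelial-like nuclei fell into clusters 3 and 11. In cluster 3 *Mgll* was 1.34-fold and 2.08-fold the adipocyte-like level, and in cluster 11, where the markers were at 0.765 and 0.804, it was 1.10-fold and 1.34-fold. In cluster 11 of the library labelled *Wtap*-BKO, *Pnpla2* (0.971), *Pnpla3* (0.822), *Abhd5* (0.926) and *G0s2* (0.978) had intervals that included 1. *Lipe* was at 0.909 (0.828 to 0.996) there. Of these 5 genes, only *Abhd5* (0.618 to 1.27) had such an interval in *Wtap* flox/flox. Cluster 11 had medians of 1425 and 1989 UMIs per nucleus. The median mitochondrial share of cluster 3 was 11.2% in *Wtap* flox/flox and 6.00% in the library labelled *Wtap*-BKO, with medians of 765 and 748 UMIs per nucleus, and the part of these in the *Mgll* values was not tested.

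Unnamed cluster 6, led by mitochondrially encoded genes, had *Pnpla2* at 839.9 CPM in *Wtap* flox/flox, first of the 12 groups ahead of 829.6 CPM in adipocyte-like cluster 10, and 635 CPM in the library labelled *Wtap*-BKO. *Lipe* was at 679.7 and 1098 CPM there, 0.382 and 0.352 times the adipocyte-like level. Mitochondrially encoded genes took 37.1% and 44.9% of the UMIs of cluster 6, against 2.32% to 10.8% and 7.25% to 19.8% in adipocyte-like clusters. These UMIs are in the denominator of CPM and lower the CPM of other genes in cluster 6. Levels in neighbouring groups of the order often could not be separated. Of 11 neighbouring pairs, the interval of their ratio left out 1 in 2 pairs for *Pnpla2*, 4 for *Lipe* and 2 for *Mgll* in *Wtap* flox/flox, and in 4, 4 and 5 in the library labelled *Wtap*-BKO. For *Pnpla3*, *Abhd5* and *G0s2* it did so in 0, 1 and 0 pairs, and in 1, 0 and 2 pairs.

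Lists of genes around lipolysis were set beside the 6 genes in adipocyte-like nuclei, counting those at least 1.5-fold higher or lower among members with at least 100 UMIs. *Lpl*, *Acsl1*, *Cidea*, *Cidec*, *Dgat2*, *Pparg*, *Cebpa* and *Ppara* are also adipocyte markers used to name the nuclei. Of other patatin-like genes, 1 of 3 was higher, against 19.5% of all genes. It was *Pnpla7*, at 83.1 and 136 CPM (0.71), while *Pnpla6* was at 0.34 and *Pnpla8* at -0.27.

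Of 10 other lipases, 1 was higher and 0 lower, no more than the 19.5% and 10.6% of all genes. This was *Lpl*, the lipoprotein lipase of the capillary wall, at 697 and 1360 CPM (0.96). *Abhd12* and *Daglb* had log2 ratios of 0.55 and 0.50, below the fold used, and *Nceh1* was at -0.43 with an interval that included 0. The median of this list was -0.03.

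Droplet and fatty acid handling genes were divided, with 5 of 11 higher and 3 lower, against 19.5% and 10.6% of all genes, and a median of 0.41. The droplet proteins *Plin2* and *Plin4* were higher, at 155 and 573 CPM (1.88) and at 615 and 1381 CPM (1.17). *Fabp4*, a fatty acid carrier, was at 1453 and 3595 CPM (1.31). *Plin5*, which links droplets with mitochondria, was lower, at 221 and 104 CPM (-1.09).

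Of 19 upstream signal genes, 5 were higher and 7 lower, with a median of -0.48. The share that was higher is near the 19.5% of all genes, and the share that was lower is above their 10.6%. The lactate receptor *Hcar1* was at 14.7 and 80.1 CPM (2.44), and the β1-adrenergic receptor *Adrb1* at 61.6 and 157 CPM (1.36). The Gs alpha subunit gene *Gnas* was lower, at 1892 and 752 CPM (-1.33), as was the adenylyl cyclase *Adcy6*, at 326 and 136 CPM (-1.26).

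Of 9 transcription factors, 4 were higher and 2 lower, against 19.5% and 10.6% of all genes, with a median of 0.15. The immediate-early gene *Egr1* went from 6.97 to 128 CPM (4.196), *Srebf1* from 89.8 to 250.1 CPM (1.48) and *Cebpa* from 51.7 to 138 CPM (1.42). *Foxo1* was lower, from 925 to 391 CPM (-1.24).

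Lipogenesis and esterification genes had 7 of 12 higher and 1 lower, against 19.5% and 10.6% of all genes, with a median of 0.72. *Fasn*, fatty acid synthase, had 229 and 1067 CPM (2.22), *Scd1*, a desaturase, had 961 and 3206 CPM (1.74), *Acaca* had 662 and 1821 CPM (1.46) and *Pck1* had 711 and 1873 CPM (1.40). The esterification genes of the list were divided. *Agpat2* was higher (1.35), *Dgat1* was at 0.10, *Dgat2* at -0.30 and *Gpam* at -0.39, and *Lpin1*, at -0.91, was the 1 lower gene.

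**Figure D4:**
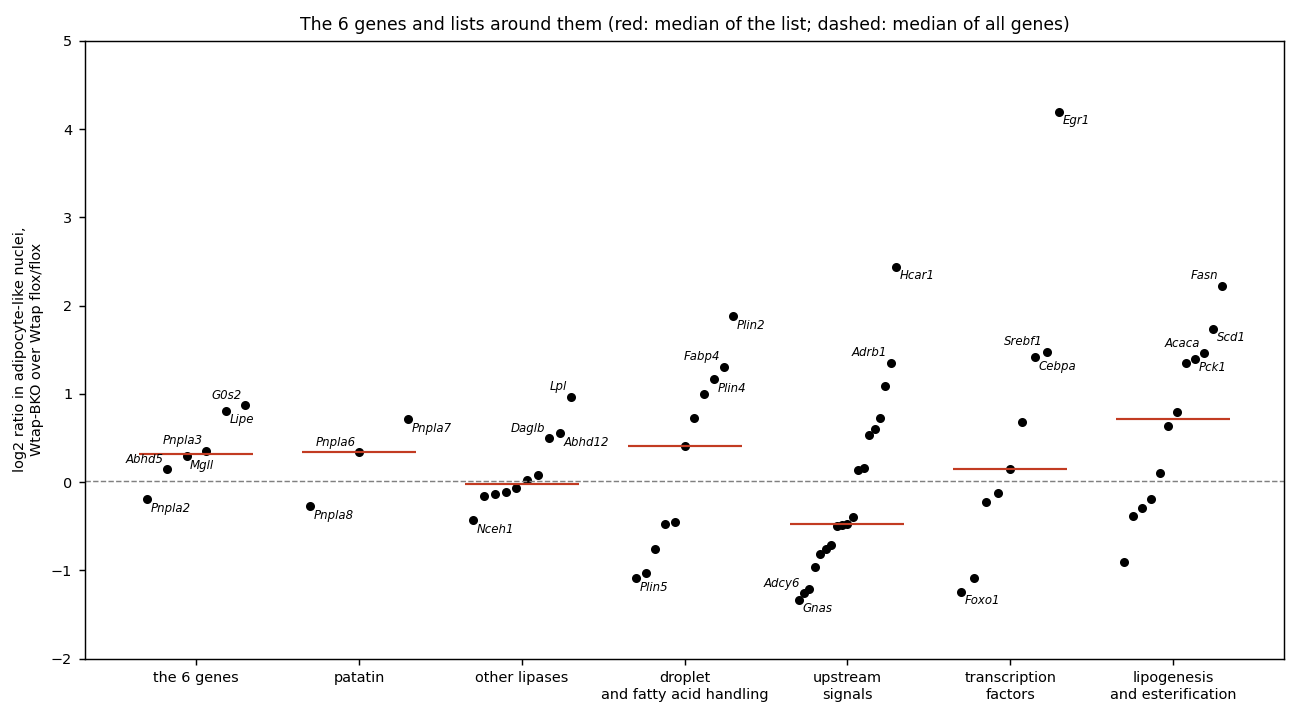
Log2 ratio between libraries (y axis, *Wtap*-BKO divided by *Wtap* flox/flox, as labelled) in adipocyte-like nuclei for the 6 genes and for members of 6 lists (x axis) with at least 100 UMIs; the red line is the median of each list, the dashed line the median of all genes (0.02), and the genes named by the rule are labelled. The medians run from -0.48 for upstream signals to 0.72 for lipogenesis and esterification.

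The genes with the pattern most like each of the 6 were taken over 26 profiles, 1 for each cluster and library with at least 50 nuclei, among 7063 genes. Profiles of a library share its depth and free RNA, so the values are a description. *Pnpla2* was closest to *Etfa* (Pearson r = 0.90), *Ormdl3* and *Glul*, *Pnpla3* to *Cenpv* (0.89), *Nudt7* and *Elovl6*, and *Lipe* to *Tmem45b* (0.95), *Aacs* and *Pck1*. *Mgll* was closest to *Cav1* (0.94), *Cd36* and *Pitpnm2*, *Abhd5* to *Pde4dip* (0.95), *Alg9* and *Paqr9*, and *G0s2* to *Prelp* (0.86), *Pck1* and *Adora1*. Among the 6 genes themselves, r was 0.81 for *Pnpla3* with *Lipe*, 0.80 for *Lipe* with *G0s2* and 0.34 for *Pnpla2* with *G0s2*.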

How the data were processed

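Nuclei of frozen iBAT were profiled with 10x Chromium 3′ v3.1 chemistry. The deposited matrices hold raw counts of UMIs per gene and nucleus, which the authors made with Cell Ranger 5.0.0 per the file headers; the submitters' notes name mm10. The lowest total was 500 UMIs per nucleus. Of repeated symbols (38), the gene listed earlier keeps the name.

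Nuclei were clustered with Seurat 5.3.0 in R 4.3.3 with 2000 variable features, canonical correlation integration and a resolution of 0.5 on 20 PCs, without the 6 genes among the variable features. For this step the study names both 20 and 8 PCs, and 8 PCs were run as an alternative. A first clustering left out the rows of repeated symbols. All rows, as deposited, were restored after its results had been seen, and the first clustering, which split the endothelial-like nuclei differently, was kept as an alternative. A class needed at least 3 markers with 10 UMIs and 2-fold the CPM of all other nuclei, and adipocyte-like clusters at least 50% of 12 markers at 1.5-fold the named clusters. A cluster also stayed unnamed if, among its 10 leading genes by fold, the markers of a different class outnumbered those of the class it had met. These rules were chosen with the data in view. Cluster 6 met too few markers, and cluster 12 met 6 of 12 adipocyte markers but was led by the Schwann cell markers *Cdh19* and *Scn7a*. B cell-like nuclei, 12 and 61, were too few to compare. Nuclei with 10 or more skeletal muscle marker UMIs, 0 and 2, were set aside. Scrublet in scanpy 1.11.5 called 3 and 0 doublets, so its calls were not used, and the 721 and 616 nuclei of highest score were removed as an alternative.

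UMIs were summed per library and class as CPM, with exact Poisson intervals, Clopper-Pearson intervals for shares and exact conditional intervals for ratios (scipy 1.17.1), all for counting error only. The calculation was tested on counts drawn from a Poisson distribution. The intervals assume that same error, so the test does not cover spread between nuclei or mice. The genes and lists were chosen with earlier results of these data known. Named from each list were up to 4 genes of largest absolute log2 ratio, and for likeness 3 genes of highest r among those with at least 500 UMIs. Further esterification genes were given outside this rule. No sequences are shown, since none were in the sources used here.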

Additional observations from a re-analysis of the deposited data

Results flagged for a closer look

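*Mgll* differed in opposite directions between classes of nuclei. It was higher in adipocyte-like nuclei of the library labelled *Wtap*-BKO, by 0.30 on the log2 scale. In macrophage-like nuclei it was lower, at 268 and 204 CPM and a log2 ratio of -0.39 (-0.73 to -0.04), from 86 and 374 UMIs. In T cell-like nuclei it was at 414 and 226 CPM, a log2 ratio of -0.87 (-1.30 to -0.43), from 58 and 219 UMIs. The 12 adipocyte markers summed had log2 ratios of -0.69 and -1.02 in these classes. Among them, *Adipoq* was at 0.51 and 0.68 and *Ucp1* at 5.2e-05 and -0.17. The part of the markers in the *Mgll* values was not tested. The difference between classes was not tested, since each genotype had 1 library.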

How the results depend on the processing

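No paired analysis was possible because each genotype had 1 library. In adipocyte-like nuclei, the log2 ratios of the 6 genes kept their sign in all 60 alternative values, and 46 stayed within the main interval. Those outside it were *Pnpla2* at -0.27, *Lipe* at 0.74 and *Mgll* at 0.22 with median-of-ratios scaling. With mitochondrial UMIs left out of the denominator, *Pnpla2* was at -0.081, *Lipe* at 0.92, *Mgll* at 0.41 and *G0s2* at 0.98. Without nuclei over 5% mitochondrial UMIs, *Pnpla2* was at -0.31, *Pnpla3* at 0.57, *Lipe* at 0.86, *Mgll* at 0.53 and *G0s2* at 0.70. *Lipe* was at 0.85 with a minimum of 1000 UMIs, and *Mgll* at 0.36 with equal cluster weights.

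Over all non-adipocyte classes together, 36 of 48 alternative values kept their sign. The positive ratios of *Lipe* (0.27) and *G0s2* (0.28) reversed with median-of-ratios scaling (-0.033 and -0.028), which moves the median of all genes there by 0.31. They also reversed without nuclei over 5% mitochondrial UMIs (-0.36 and -0.34) and without the nuclei of highest doublet scores (-0.11 and -0.059). *Mgll* in endothelial-like over adipocyte-like nuclei reversed in *Wtap* flox/flox with a minimum of 1000 UMIs (-0.060). The other clusterings, leaving out rows of repeated symbols included, gave 0.33 to 0.34 there and 0.87 to 0.94 in the library labelled *Wtap*-BKO. Of all 12 alternative values of this ratio, 11 kept their sign, and 3 of these moved. The causes were not tested.

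Genes past 1.5-fold numbered 1966 higher and 1075 lower, against 3559 and 1720 at a minimum of 20 UMIs and 5569 and 3330 with 1 UMI in each library. Leaving mitochondrial UMIs out of the denominator gave 699 lower. The difference in the share of nuclei with a UMI, in percentage points, reversed for *Pnpla2* without thinning (6.24). Without thinning it was 6.37 for *Pnpla3*, 14.4 for *Mgll*, 4.97 for *Abhd5* and 22.8 for *G0s2*. Thinned to 500 UMIs it was 20.03 for *Lipe*, 2.94 for *Mgll* and 7.78 for *G0s2*. Of the list medians, 5 of 18 alternative values moved by over 0.2 or changed sign. Without nuclei over 5% mitochondrial UMIs, other lipases were at 0.12, upstream signals at -0.20 and transcription factors at 0.39. Other lipases were at 0.088 with mitochondrial UMIs left out of the denominator, and droplet genes at 0.13 at a minimum of 20 UMIs.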
